A study of Mus musculus with 12 samples.

Results

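The genes described here are Fos, Fosb, Fosl1, Fosl2, Jun, Junb, Jund, Atf3, Egr1 and Myc, 10 of the 24619 gene symbols in the deposited count table. They were taken by symbol, as the genes of the AP-1 family together with Egr1 and Myc, and all 10 had enough counts to be tested. Messenger RNA was sequenced from primary mouse cells that the labels call cardiac fibroblasts (in the heart, these cells make the matrix), in 12 libraries that form 4 groups of 3. All groups were starved for 12 h and then kept for 24 h in conditioned medium, which is medium taken from other cells, here from adipocytes infected with lentivirus. The series asks what adipocytes with more or less of the human microRNA miR-548ay change in these fibroblasts. The adipocytes were not analysed here.

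OE_CM received the medium of adipocytes infected with a lentivirus for overexpression of the microRNA, and VEC_CM that of adipocytes infected with a vector lentivirus. TGF_KD_CM and TGF_VEC_CM both carried TGF-beta1, which turns fibroblasts towards matrix production. TGF_KD_CM combined it with the medium of adipocytes infected with a lentivirus for inhibition of the microRNA, and TGF_VEC_CM with the medium of vector-infected adipocytes. Whether the factor was given to the fibroblasts or to the adipocytes is not settled by the labels. Groups follow the sample titles, since in OE_CM and TGF_KD_CM replicates 2 and 3 bear a treatment label with another microRNA number. Separate cultures are not stated for replicates. The p-values therefore measure the spread among libraries, and this spread could be technical only.

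AP-1 is a dimer of a Fos-type and a Jun-type protein, joined through a leucine zipper, that binds DNA at short palindromic sites. Many of these genes, among them Fos, Jun, Atf3, the zinc finger gene Egr1 and Myc, are immediate early genes. Growth factors switch several of them on through the ERK cascade and serum response factor without new protein synthesis. Most of their messenger RNAs are short-lived. In fibroblasts AP-1 drives genes of migration, proteolysis and inflammation, EGR1 is linked to matrix genes, and MYC drives ribosome synthesis and growth.

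The label was checked against markers. Of 9 fibroblast markers in the table, Col1a1, Col1a2, Col3a1, Vim, Ddr2 and Pdgfra were expressed, with Vim at 1764 to 3172 CPM in the group means (CPM is the count scaled to the library's size), whereas Dcn, Lum and Thy1 averaged below 1 CPM in every group. The 6 cardiomyocyte markers summed to 163 to 167 CPM in OE_CM, 69.9 to 75.1 in VEC_CM, 97.2 to 104 in TGF_KD_CM and 104.7 to 116 in TGF_VEC_CM. Most of that was Tnnt2, while the defining genes Myh6, Actc1 and Tnni3 were at or near 0. The 6 adipocyte markers summed to 97.5 to 102 CPM in OE_CM, 265 to 279 in VEC_CM, 152 to 163 in TGF_KD_CM and 186 to 198 in TGF_VEC_CM. Most of that was Fabp4, while the defining genes Adipoq and Plin1 averaged below 1 CPM in every group. The 4 mural markers, of which Cspg4 made up nearly all, summed to 875 to 878 CPM in OE_CM, 555 to 576 in VEC_CM, 600.0 to 615 in TGF_KD_CM and 784 to 807 in TGF_VEC_CM, and the 4 endothelial ones to less than 1 CPM in each. Their part in the results was not tested, and in bulk RNA a change in the number of cells and a change in RNA per cell cannot be told apart. Library totals ran from 33379207 to 37226153 counts.

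Fosl1 and Fosl2, which encode the Fos-type proteins FRA1 and FRA2, held most of the Fos-family messages in every library, while Fos and Fosb were scarce. Per length, in FPKM (counts scaled to library size and gene length), Fosl1 averaged 67.7 ± 4.78 in OE_CM, 56.4 ± 2.84 in VEC_CM, 46.2 ± 1.19 in TGF_KD_CM and 57.7 ± 1.35 in TGF_VEC_CM (SD, n = 3 each). Myc averaged 74.5 ± 3.78 FPKM in OE_CM, 35.3 ± 1.62 in VEC_CM, 40.9 ± 0.815 in TGF_KD_CM and 52.3 ± 2.43 in TGF_VEC_CM. Fos, Fosb, Egr1 and Atf3 stayed below 0.6 FPKM in every group mean, and each had between 4 and 86 counts in a library, so their fold changes carry wide errors.

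**Figure D1:**
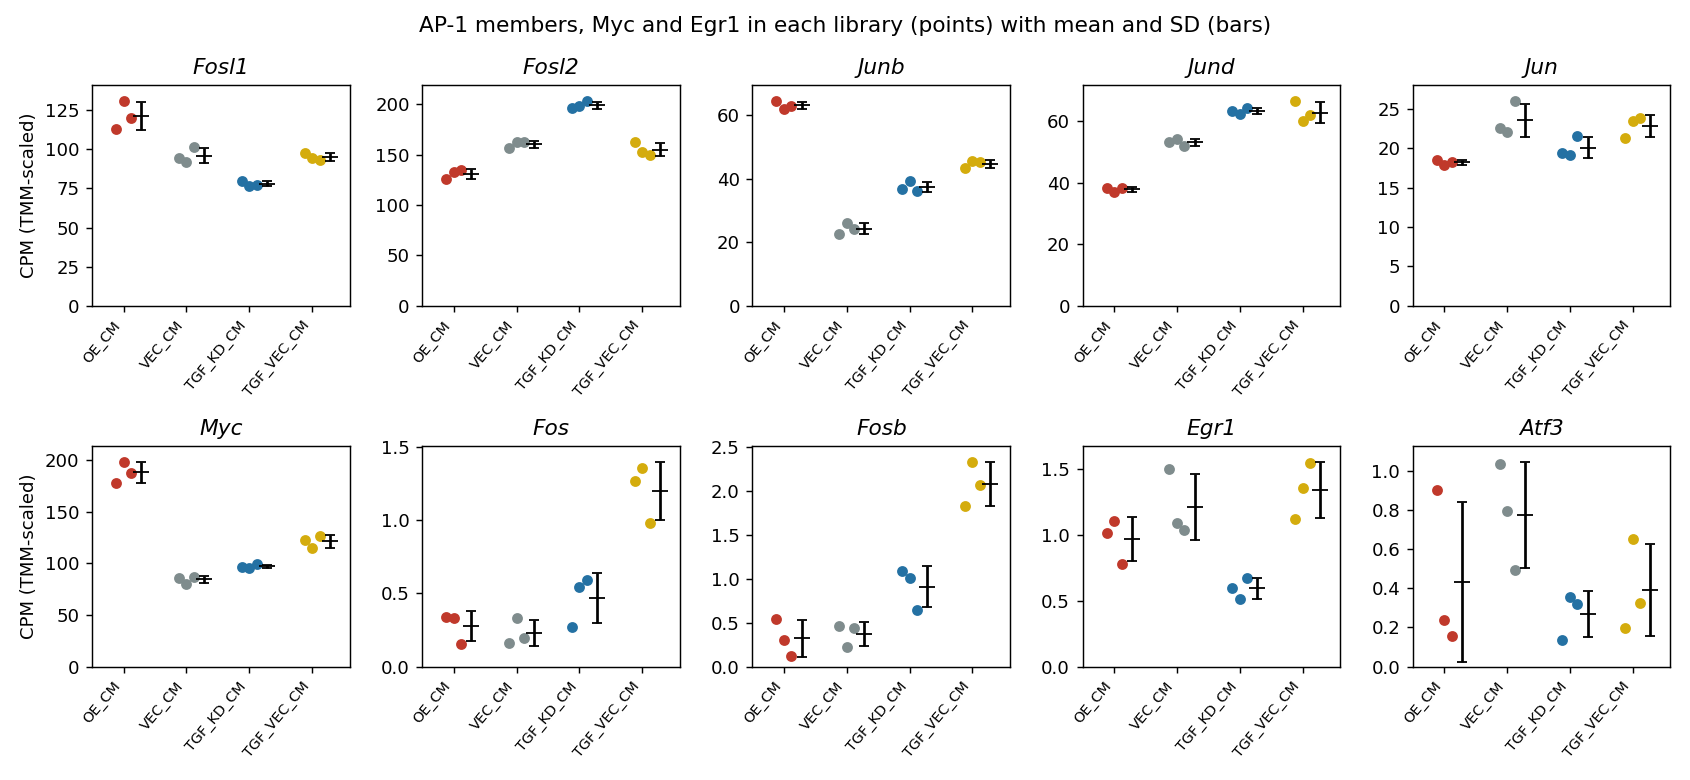
Level of each of the 10 genes in CPM (vertical axes from 0, each gene on its own scale) in the 3 libraries of OE_CM, VEC_CM, TGF_KD_CM and TGF_VEC_CM. Points are libraries and bars are the mean and SD; Junb and Myc are highest in OE_CM, Fos and Fosb in TGF_VEC_CM, and Fosl2 in TGF_KD_CM.

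The promoters of Junb, Jun, Fosl2 and Fos are shown because these Jun and Fos genes diverged in level. Junb and Jun moved in opposite directions in OE_CM, Fosl2 moved against Fosl1, and Fos is the classical member. Of the 10 genes, 7 matched a RefSeq promoter of build GRCm38.p6; the 120 bases before the start are printed 5′ to 3′ on the gene's strand, with motif matches in capitals.
Junb (chr8:84978749-84978868, minus strand): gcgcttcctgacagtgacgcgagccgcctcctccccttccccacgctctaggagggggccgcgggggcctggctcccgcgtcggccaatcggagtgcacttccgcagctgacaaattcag
Jun (chr4:95052223-95052342, minus strand): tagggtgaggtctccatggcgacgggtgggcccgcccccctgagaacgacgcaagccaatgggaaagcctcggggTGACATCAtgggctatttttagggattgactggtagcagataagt
Fosl2 (chr5:32136352-32136471, plus strand): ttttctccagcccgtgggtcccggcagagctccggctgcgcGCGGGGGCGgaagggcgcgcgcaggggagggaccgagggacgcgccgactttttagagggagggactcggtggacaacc
Fos (chr12:85473770-85473889, plus strand): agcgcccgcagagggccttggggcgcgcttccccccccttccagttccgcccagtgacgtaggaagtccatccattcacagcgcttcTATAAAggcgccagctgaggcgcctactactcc
Over the 250 bases before the start, on both strands, TGACATCA, a variant of the AP-1 and CREB site, stood 45 bases upstream of Jun and occurs in 2.93% of 32851 promoters. The EGR-type motif GCGNGGGCG stood 79 bases upstream of Fosl2 and 50 upstream of Fosb (4.70% of promoters), and TATAAA 33 bases upstream of Fos (12.4%). TGACTCA (4.46%), TGACGTCA (1.55%), CACGTG (6.02%) and the CArG box (1.47%) were in none of the 7 windows. Fosl1, Myc and Egr1 matched no promoter, and bases further upstream were not searched, so sites there would not have been seen. A match describes the letters only.

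Transcripts of related members share only short identical stretches: the longest identical run between the transcripts of any 2 members was 20 bases, shared by Jun and Jund in the coding part (gagccgcagaccgtgccgga). Fos and Fosb shared 17 (ggagggagctgacagat), and Fosl1 and Fosl2 also 17 (ctgcaggcggagaccga). Opposite-strand genes overlap Fosl1 (Ccdc85b), Jun (Junos), Junb (Prdx2), Jund (Gm11175) and Atf3 (Gm24748), and since the strand setting of the counting is not given, their reads cannot be told apart from the members'. Gm11175 and Gm24748 were not analysed here.

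In the comparison of OE_CM with VEC_CM, Junb and Myc rose more than 2-fold, Fosl1 rose modestly, and Fosl2, Jun and Jund fell. Junb, a Jun-type protein that can restrain JUN, had 64.4, 62.0 and 63.0 CPM in OE_CM, against 22.5, 26.0 and 24.1 in VEC_CM. All OE_CM libraries stood above all VEC_CM libraries, and the log2 fold change was 1.38 ± 0.052 (SE; edgeR quasi-likelihood, adjusted p = 1.32e-33). Myc, the growth regulator that dimerises with MAX, had 178, 198 and 188 CPM in OE_CM, against 85.9, 80.0 and 87.0 in VEC_CM. The groups did not overlap, and the log2 fold change was 1.15 ± 0.037 (edgeR adjusted p = 8.62e-32).

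Fosl1 had 113, 131 and 120.1 CPM in OE_CM, against 94.3, 92.1 and 101 in VEC_CM (log2 fold change 0.34 ± 0.040, edgeR adjusted p = 2.28e-10). Its relative Fosl2 went the other way, with 125, 133 and 135 CPM in OE_CM, against 156, 162 and 162 in VEC_CM, and fell by 0.29 ± 0.031 on the log2 scale (edgeR adjusted p = 2.36e-12). Jund, a broadly expressed Jun-type gene, had 38.4, 37.0 and 38.3 CPM in OE_CM, against 53.2, 54.3 and 51.9 in VEC_CM, and fell by 0.49 ± 0.046 (edgeR adjusted p = 2.26e-14). The libraries of these 3 genes did not overlap between groups. Jun, the founding Jun-type gene, had 18.6, 17.9 and 18.3 CPM in OE_CM, against 22.6, 22.1 and 26.0 in VEC_CM. It fell by 0.37 ± 0.071 (edgeR adjusted p = 7.73e-06), and its groups were also separate. Junos, antisense to Jun, was lower in OE_CM as well (13.1 ± 0.549 CPM, against 19.7 ± 1.63 in VEC_CM), as was Ccdc85b beside Fosl1 (9.43 ± 0.866 CPM in OE_CM, against 17.9 ± 2.25 in VEC_CM). Prdx2 beside Junb was at 138 ± 3.64 CPM in OE_CM and 131 ± 2.78 in VEC_CM, a difference that missed the threshold (edgeR adjusted p = 0.0898).

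Fos and Fosb did not pass the test in this comparison. Fos had 12, 11 and 5 counts in OE_CM, against 6, 12 and 7 in VEC_CM (log2 fold change 0.28 ± 0.52, edgeR adjusted p = 0.677), and Fosb had 19, 10 and 4 counts in OE_CM, against 17, 8 and 16 in VEC_CM (-0.20 ± 0.45, edgeR adjusted p = 0.735). Egr1, the zinc finger factor, had 36, 37 and 25 counts in OE_CM, against 55, 40 and 38 in VEC_CM (-0.32 ± 0.31, edgeR adjusted p = 0.394). The ranges of these genes overlapped.

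Atf3, a stress-induced partner of the Jun proteins, had 32, 8 and 5 counts in OE_CM, against 38, 29 and 18 in VEC_CM, with a log2 fold change of -0.81 ± 0.48 that missed the threshold (edgeR adjusted p = 0.148). OE_CM replicate 1 alone reached the VEC_CM range. Without it the value was -1.95 ± 0.59 (edgeR adjusted p = 0.00368). That library also had the highest summed leukocyte markers of its group, 30.7 CPM over 8 markers, against 21.3 and 17.3 in OE_CM replicates 2 and 3, and 38.4 to 41.6 in VEC_CM. TGF_KD_CM had 24.1 to 26.5 CPM of these markers and TGF_VEC_CM 30.4 to 33.4. Replicate 1 had the highest sum in each group. Its Atf3 count was the highest of the group in OE_CM and VEC_CM, but the lowest in TGF_KD_CM and TGF_VEC_CM. None of the 8 markers was at 0 throughout a group. Their part in the result was not tested.

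In all, 6 of 10 members passed in OE_CM against VEC_CM, 3 higher and 3 lower, where 54.0% of all genes tested passed (28.4% higher and 25.7% lower). The median absolute log2 fold change was 0.354 over all 10 members, passed or not, and 0.228 over all 14400 genes. Passing together with a change of at least 2-fold held for 2 members, Junb and Myc, and for 7.35% of all genes. The 6 members whose groups did not overlap compare with 58.2% of all genes.

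**Figure D2:**
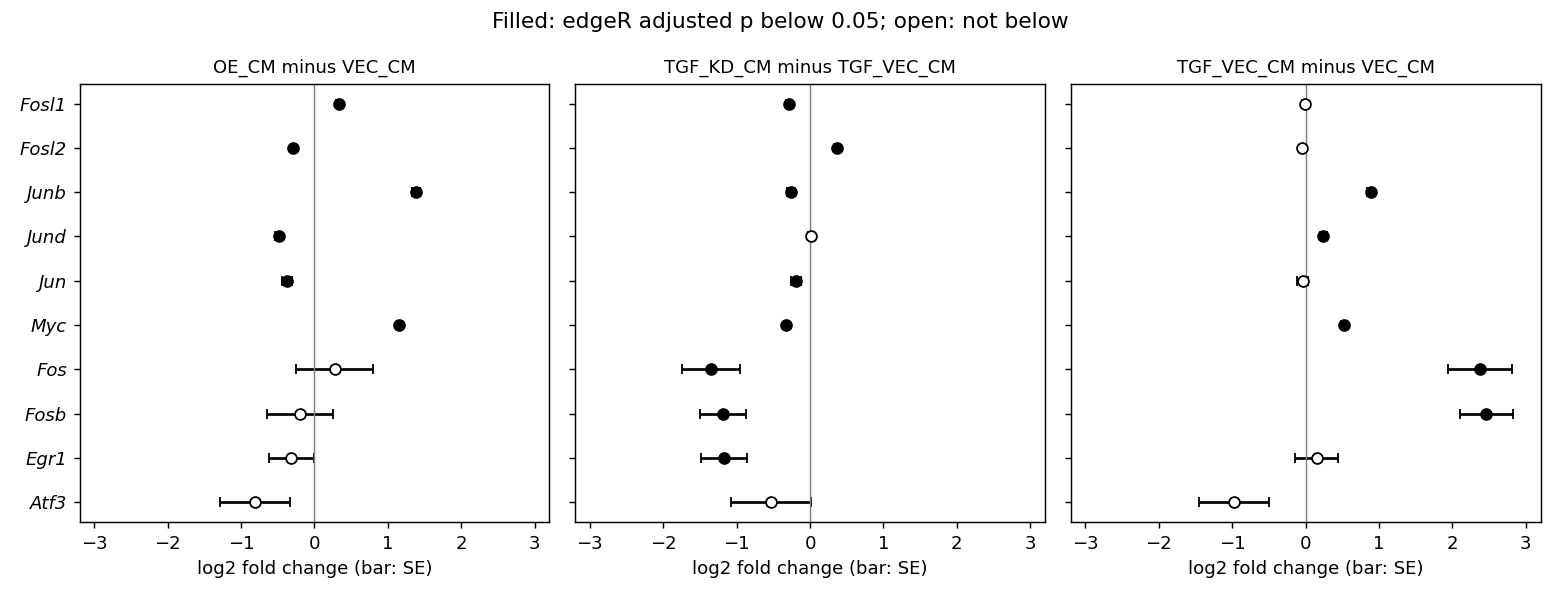
Log2 fold change (horizontal axis) of each gene with its SE in 3 comparisons, from the edgeR fit. Filled points passed the adjusted p threshold of 0.05 and open points did not; Junb is at 1.38 in OE_CM minus VEC_CM, and Fos and Fosb are at 2.38 and 2.46 in TGF_VEC_CM minus VEC_CM.

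Inhibition of the microRNA in the adipocytes was compared in the presence of TGF-beta1. In TGF_KD_CM against TGF_VEC_CM, 7 members fell (Fos, Fosb, Fosl1, Jun, Junb, Egr1 and Myc), Fosl2 rose, and Jund and Atf3 did not pass. Fos fell to 10, 20 and 22 counts in TGF_KD_CM, against 45, 50 and 36 in TGF_VEC_CM (log2 fold change -1.35 ± 0.39, edgeR adjusted p = 0.00325). Fosb, its close relative, fell to 40, 37 and 24 counts in TGF_KD_CM, against 65, 86 and 76 in TGF_VEC_CM (-1.18 ± 0.32, edgeR adjusted p = 0.00154). Egr1 fell to 22, 19 and 25 counts in TGF_KD_CM, against 40, 50 and 57 in TGF_VEC_CM (-1.17 ± 0.32, edgeR adjusted p = 0.00174). The libraries of Fos, Fosb and Egr1 did not overlap between these groups.

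The abundant members had smaller log2 fold changes. Fosl1 had 79.8, 76.7 and 77.2 CPM in TGF_KD_CM, against 97.7, 94.4 and 93.1 in TGF_VEC_CM (log2 fold change -0.29 ± 0.041, edgeR adjusted p = 5.24e-08). Fosl2 had 196, 198 and 203 CPM in TGF_KD_CM, against 162, 152 and 149.9 in TGF_VEC_CM (0.36 ± 0.030, edgeR adjusted p = 4.32e-16). Myc had 96.2, 95.8 and 98.9 CPM in TGF_KD_CM, against 122, 115 and 127 in TGF_VEC_CM (-0.32 ± 0.037, edgeR adjusted p = 2.86e-10). For these 3 genes the groups were fully separate. Junb had 36.9, 39.3 and 36.1 CPM in TGF_KD_CM, against 43.3, 45.5 and 45.4 in TGF_VEC_CM (-0.26 ± 0.051, edgeR adjusted p = 2.33e-05). Jun had 19.4, 19.2 and 21.6 CPM in TGF_KD_CM, against 21.3, 23.5 and 23.9 in TGF_VEC_CM, with overlapping ranges (-0.19 ± 0.069, edgeR adjusted p = 0.0215). That call was lost without TGF_VEC_CM replicate 2 or 3 and without TGF_KD_CM replicate 1 or 2 (adjusted p = 0.0566, 0.0756, 0.0610 and 0.0724), and with limma on log2(FPKM + 1) without a filter (adjusted p = 0.0534).

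Jund had 63.4, 62.3 and 64.3 CPM in TGF_KD_CM, against 66.5, 59.9 and 62.1 in TGF_VEC_CM, and the ranges overlapped (log2 fold change 0.01 ± 0.043, edgeR adjusted p = 0.856). Atf3 had 5, 13 and 12 counts in TGF_KD_CM, against 7, 24 and 12 in TGF_VEC_CM (-0.53 ± 0.55, edgeR adjusted p = 0.457). The 8 members that passed compare with 43.3% of all genes, the 7 that fell with 20.2% and the 1 that rose with 23.0%. The median absolute log2 fold change was 0.342 over all 10 members, passed or not, and 0.172 over all genes; 3 members (Fos, Fosb and Egr1) also changed at least 2-fold, as did 4.03% of all genes. Ranges did not overlap for 7 members and for 50.9% of all genes.

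TGF_VEC_CM was set against VEC_CM to describe the presence of TGF-beta1. The series places these groups in separate parts of the study, so the factor and the part cannot be told apart. The comparison shares its VEC_CM libraries with the comparison of OE_CM, and its TGF_VEC_CM libraries with that of TGF_KD_CM. The members that rose were Fos, Fosb, Junb, Jund and Myc, and none fell. Fos had 45, 50 and 36 counts in TGF_VEC_CM, against 6, 12 and 7 in VEC_CM (log2 fold change 2.38 ± 0.43, edgeR adjusted p = 2.71e-06). Fosb had 65, 86 and 76 counts in TGF_VEC_CM, against 17, 8 and 16 in VEC_CM (2.46 ± 0.36, edgeR adjusted p = 1.60e-08). Junb had 43.3, 45.5 and 45.4 CPM in TGF_VEC_CM, against the 22.5 to 26.0 of VEC_CM (0.88 ± 0.053, edgeR adjusted p = 4.73e-23). All 3 genes separated the groups completely. In this comparison ranges did not overlap for 5 members and for 62.8% of all genes. Myc rose by 0.52 ± 0.038 (edgeR adjusted p = 2.37e-17) and Jund by 0.24 ± 0.044 (edgeR adjusted p = 2.91e-06) on the log2 scale.

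Fosl1, Fosl2 and Jun had log2 fold changes of -0.01, -0.05 and -0.04 in that comparison (edgeR adjusted p = 0.817, 0.167 and 0.617), and Egr1 one of 0.15 ± 0.29 (edgeR adjusted p = 0.686). Atf3 was at 0.391 ± 0.233 CPM in TGF_VEC_CM and 0.773 ± 0.272 in VEC_CM (-0.97 ± 0.48, edgeR adjusted p = 0.0748). It passed without VEC_CM replicate 3 (edgeR adjusted p = 0.0459) or TGF_VEC_CM replicate 2 (edgeR adjusted p = 0.0199). Atf3 also passed in a fit of the compared groups only (edgeR adjusted p = 0.0355). The 5 members that passed compare with 58.3% of all genes tested; 28.9% of all genes were higher and 29.4% lower. The median absolute log2 fold change was 0.383 over all 10 members, passed or not, and 0.240 over all genes, and Fos and Fosb were the 2 members changed at least 2-fold, as were 9.23% of all genes.

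The effect of overexpression (OE_CM minus VEC_CM) was then compared with that of inhibition (TGF_KD_CM minus TGF_VEC_CM) by the contrast of both, which shares no libraries between its sides. Only the inhibition side carried TGF-beta1, and the sides lie in separate parts of the study. The change of the microRNA, TGF-beta1 and the part therefore cannot be told apart in a difference of effects. The log2 effects differed for 6 members (4 higher and 2 lower), where 52.5% of all genes differed (25.6% higher and 26.8% lower). A difference of at least 2-fold was passed by 3 members (Fos, Junb and Myc) and 9.76% of all genes. Junb differed by 1.64 ± 0.073 (edgeR adjusted p = 1.04e-29), Myc by 1.48 ± 0.052 (edgeR adjusted p = 9.21e-30) and Fosl1 by 0.63 ± 0.057 (edgeR adjusted p = 9.01e-14), each with a rise under overexpression medium and a fall under inhibition medium. Fosl2 differed by -0.65 ± 0.044 (edgeR adjusted p = 7.62e-21), with a fall and a rise in that order. Jund differed by -0.50 ± 0.064 (edgeR adjusted p = 4.96e-10): it fell under overexpression medium, and its value under inhibition medium did not pass.

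Fos differed by 1.63 ± 0.65 (edgeR adjusted p = 0.0303), a call lost without VEC_CM replicate 1 or 3, OE_CM replicate 1 or 2, TGF_VEC_CM replicate 1 or 2, or TGF_KD_CM replicate 1 (adjusted p between 0.0537 and 0.0863), and with no filter on low counts (adjusted p = 0.0506). Jun fell in both comparisons, and its effects were not shown to differ (difference -0.18 ± 0.099, edgeR adjusted p = 0.123), except with upper-quartile factors (adjusted p = 0.0339). Fosb (0.99 ± 0.55, edgeR adjusted p = 0.130), Egr1 (0.85 ± 0.44, edgeR adjusted p = 0.10) and Atf3 (-0.28 ± 0.73, edgeR adjusted p = 0.779) missed the threshold. The Fosb difference passed without OE_CM replicate 3 (adjusted p = 0.0333) and with limma on log2(FPKM + 1), with and without a filter, and on log2(FPKM + 0.1) (adjusted p = 0.00327, 0.00701 and 0.0494). The Egr1 difference passed with limma on log2(FPKM + 0.1) (adjusted p = 0.0430).

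The groups were also put in order of level, which used 2 further comparisons across agents. In OE_CM against TGF_VEC_CM 8 members passed, and 64.5% of all genes; in TGF_KD_CM against VEC_CM 9 members passed, and 41.7% of all genes. Myc ran from OE_CM through TGF_VEC_CM and TGF_KD_CM to VEC_CM, and each step passed the test (edgeR adjusted p at most 1.88e-05). Junb had the same order, and each of its steps also passed (edgeR adjusted p at most 2.33e-05). Fosl2 ran from TGF_KD_CM, through VEC_CM and TGF_VEC_CM, which did not differ beyond their spread (edgeR adjusted p = 0.167), to OE_CM. Fosl1 was highest in OE_CM and lowest in TGF_KD_CM, with VEC_CM and TGF_VEC_CM not separated between them (edgeR adjusted p = 0.817). Jund was highest in TGF_KD_CM and TGF_VEC_CM, which were not separated, then VEC_CM, then OE_CM. Fosb was higher in TGF_KD_CM than in VEC_CM (0.911 ± 0.235 CPM, against 0.373 ± 0.134; edgeR adjusted p = 0.00465), while OE_CM and VEC_CM overlapped.

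The makeup of the AP-1 messages differed between the media. Of the summed FPKM of the 8 AP-1 genes, Fosl1 took 49.6 ± 2.08% in OE_CM, 47.4 ± 1.37% in VEC_CM, 37.1 ± 0.742% in TGF_KD_CM and 42.2 ± 0.381% in TGF_VEC_CM. Junb took 24.0 ± 1.22% in OE_CM, 11.1 ± 0.801% in VEC_CM, 16.5 ± 0.765% in TGF_KD_CM and 18.4 ± 0.783% in TGF_VEC_CM. Fosl2 took 12.9 ± 0.342% in OE_CM, 19.1 ± 0.370% in VEC_CM, 22.8 ± 0.382% in TGF_KD_CM and 16.5 ± 0.411% in TGF_VEC_CM. Jund took 9.21 ± 0.471% in OE_CM, 15.6 ± 0.720% in VEC_CM, 17.9 ± 0.237% in TGF_KD_CM and 16.5 ± 0.653% in TGF_VEC_CM. Junb thus held the largest Jun-type share in OE_CM and TGF_VEC_CM, and Jund in VEC_CM and TGF_KD_CM.

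Within the Jun family alone, Junb made up 64.5 ± 0.198% in OE_CM, against 33.7 ± 1.53% in VEC_CM, and Jund 24.8 ± 0.188% in OE_CM, against 47.3 ± 1.50% in VEC_CM. In the TGF-beta1 groups Junb made up 41.8 ± 1.64% in TGF_KD_CM and 45.6 ± 1.30% in TGF_VEC_CM. Jund made up 45.2 ± 0.930% in TGF_KD_CM and 41.0 ± 2.10% in TGF_VEC_CM. These shares are descriptions without a test, and messenger RNA shares do not give the share of AP-1 dimers.

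**Figure D3:**
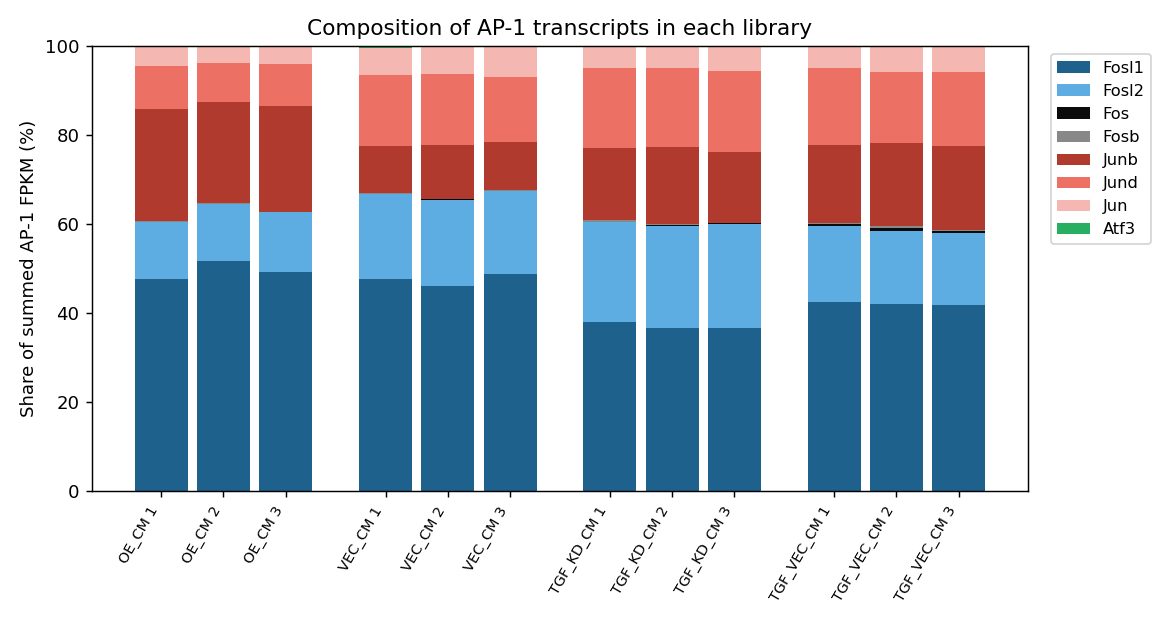
Share of the summed FPKM of 8 AP-1 genes (vertical axis, percent) in each of the 12 libraries, ordered OE_CM, VEC_CM, TGF_KD_CM and TGF_VEC_CM. Junb takes 24.0% on average in OE_CM and 11.1% in VEC_CM; Fos, Fosb and Atf3 are too scarce to be seen clearly.

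Across the 12 libraries several members varied together or in opposite directions, as a description of libraries that fall into 4 groups. Junb and Myc had a Pearson r of 0.929 in log2 CPM, Fos and Fosb 0.829, Fosl2 and Jund 0.801, and Fosl1 and Fosl2 -0.921. Fosl1 also had -0.872 with Jund and 0.778 with Myc, and Myc had -0.738 with Fosl2 and -0.731 with Jund. The genes most like Junb were Mdm2 (r = 0.993), Creb3l2 (0.992) and Ddit4 (0.990). Those most like Myc were Pdgfa (0.993), Polr2e (0.992) and Itga5 (0.989), and those most like Fosl1 were Sart3 (0.980), Lrrc47 (0.974) and Prpf8 (0.971). Fosl2 was most like Cfap251 (0.983), Grn (0.983) and Ifi203 (0.979), and Jund most like Igf2bp1 (0.992). Atf3 was most like Ctsc (0.970), Ccl6 (0.881) and Ctss (0.867), each over the same 12 libraries. The group means ran from 0.270 to 0.773 CPM for Atf3 and from 0.450 to 0.983 for Ctsc, so their likeness rests on few counts.

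Gene lists of the pathway were next described, and each count is read beside the share of all genes that passed: 28.4% higher and 25.7% lower in OE_CM against VEC_CM, 23.0% and 20.2% in TGF_KD_CM against TGF_VEC_CM, and 28.9% and 29.4% in TGF_VEC_CM against VEC_CM. One list holds genes that MYC is known to induce, many for ribosome synthesis and others for metabolism or the cell cycle. Like all lists here, it was chosen with earlier results of these data known, and its counts carry no test. In OE_CM against VEC_CM 33 of 34 rose and 1, Ccnd2, fell, with a median log2 fold change of 0.58, against -0.01 over all genes. Odc1, for polyamine synthesis, had 691 ± 7.61 CPM in OE_CM and 443 ± 7.33 in VEC_CM (0.64 ± 0.024, edgeR adjusted p = 2.19e-34). Mybbp1a and Ncl, nucleolar proteins, rose by 0.68 ± 0.025 and 0.58 ± 0.022 (edgeR adjusted p = 2.19e-34 and 1.09e-33). Of the same 34, 21 fell and 3 rose in TGF_KD_CM against TGF_VEC_CM (median -0.16), led by Odc1 (-0.39), Nolc1 (-0.38) and Pa2g4 (-0.31). In TGF_VEC_CM against VEC_CM 19 rose and 8 fell (median 0.11), with Cdk4 lower and Pa2g4 and Odc1 higher.

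The MYC and MAX network was described likewise. Max, its obligate partner, rose in OE_CM against VEC_CM (87.1 ± 5.10 CPM, against 65.4 ± 1.49; log2 fold change 0.41 ± 0.041, edgeR adjusted p = 1.42e-13), while Mxd4 and Mxd3, whose proteins compete with MYC for MAX, fell by 0.58 ± 0.056 and 0.44 ± 0.066 (edgeR adjusted p = 3.63e-14 and 4.19e-08). In TGF_KD_CM against TGF_VEC_CM, Mxd4 rose by 0.93 ± 0.056 and Mnt, another competitor, by 0.71 ± 0.064 (edgeR adjusted p = 9.50e-23 and 7.21e-15). Of 9 network genes tested, 2 rose and 4 fell in OE_CM against VEC_CM (66.7%, against 54.0% of all genes). In TGF_KD_CM against TGF_VEC_CM 3 rose and none fell (33.3%, below the 43.3% of all genes).

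Genes known as feedback or output of the ERK cascade, which signals to the immediate early genes, fell in TGF_KD_CM. Of 13 tested, 12 fell and none rose in TGF_KD_CM against TGF_VEC_CM, with a median log2 fold change of -0.85, against 0.00 over all genes. Epha2, a receptor tyrosine kinase, had 43.0 ± 0.253 CPM in TGF_KD_CM and 104.7 ± 0.385 in TGF_VEC_CM (-1.29 ± 0.042, edgeR adjusted p = 5.35e-37). Etv5 and Etv4, ETS factors of the ERK output, had log2 fold changes of -1.83 ± 0.066 and -1.15 ± 0.055 (edgeR adjusted p = 2.70e-34 and 1.48e-27). In OE_CM against VEC_CM 3 of the 13 rose and 7 fell (median -0.25). The 3 with the lowest p were Etv1, which fell by 1.34 ± 0.061, Dusp4, a phosphatase of ERK, which rose by 1.10 ± 0.052, and Dusp6, another such phosphatase, which fell by 1.02 ± 0.086 on the log2 scale. In TGF_VEC_CM against VEC_CM 5 rose and 5 fell.

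**Figure D4:**
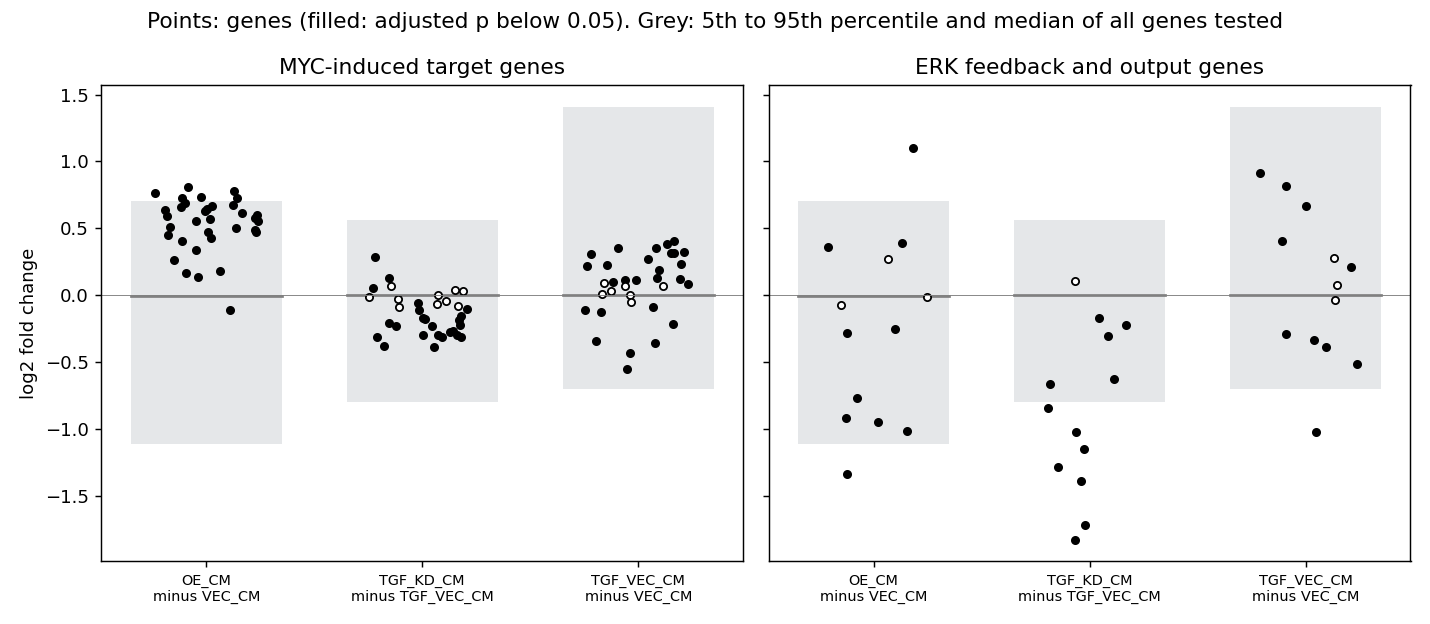
Log2 fold change (vertical axis) of 34 genes known as MYC-induced and 13 genes of ERK feedback and output in 3 comparisons. Points are genes, filled where the adjusted p was below 0.05; grey boxes run over the 5th to 95th percentile of all genes tested, with their median as a line. In OE_CM minus VEC_CM 33 of the 34 MYC-induced genes rose, and in TGF_KD_CM minus TGF_VEC_CM 12 of the 13 ERK genes fell.

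Of 12 tested genes known as AP-1 targets, 8 rose and 3 fell in OE_CM against VEC_CM (median 0.80). Cd44, a hyaluronan receptor, had 303 ± 5.79 CPM in OE_CM and 146 ± 4.51 in VEC_CM (log2 fold change 1.06 ± 0.028, edgeR adjusted p = 7.22e-42). Timp1, an inhibitor of metalloproteinases, had 158 ± 4.39 CPM in OE_CM and 67.4 ± 1.01 in VEC_CM (1.23 ± 0.034, edgeR adjusted p = 4.68e-41), and Plaur, the urokinase receptor, rose by 0.84 ± 0.047. Of the same 12, 7 fell and 1 rose in TGF_KD_CM against TGF_VEC_CM (median -0.29), with Ccnd1, a cyclin of G1, at -0.50 ± 0.025, Hbegf, an EGF receptor ligand, at -1.12 ± 0.094 and Cd44 at -0.33 ± 0.028. In TGF_VEC_CM against VEC_CM 7 rose and 3 fell (median 0.61), led by Cd44, Timp1 and Vegfa.

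Of 22 other immediate early genes, 10 rose and 4 fell in OE_CM against VEC_CM (63.6% passed, against 54.0% of all genes; median 0.25), with Gadd45b, Sgk1 and Klf10 higher by 1.35, 1.10 and 0.76 on the log2 scale. In TGF_KD_CM against TGF_VEC_CM 6 rose and 8 fell (63.6%, against 43.3% of all genes; median -0.16), with Ccn1 at -0.63, Ier3 at -0.91 and Gadd45b at 0.49. In TGF_VEC_CM against VEC_CM 13 rose and 2 fell (68.2%, against 58.3% of all genes; median 0.45), with Klf10, Ccn1 and Ppp1r15a higher by 0.51, 0.93 and 0.75. Of 10 tested genes known as EGR1 targets, 5 rose and 2 fell in OE_CM against VEC_CM (70%, against 54.0% of all genes). Egr1 itself did not pass there. Pdgfa, a fibroblast mitogen, rose by 1.09 ± 0.036 and Fgf2 by 1.68 ± 0.072 (edgeR adjusted p = 1.07e-36 and 1.27e-30). In TGF_KD_CM against TGF_VEC_CM 3 fell and 2 rose (50%, against 43.3% of all genes), led by Fgf2 at -0.77 ± 0.072 and Pdgfa at -0.33 ± 0.036.

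The upstream kinases moved in both directions. In OE_CM against VEC_CM 7 of 15 ERK cascade genes rose and 3 fell, 66.7% in all, where 54.0% of all genes passed. Map2k1, which encodes the kinase MEK1, rose by 1.20 ± 0.031, and Ksr1, a scaffold, and Mapk3, which encodes ERK1, fell by 1.05 ± 0.054 and 0.44 ± 0.035 (edgeR adjusted p = 2.42e-42, 1.13e-26 and 1.72e-17). Of the same 15, 7 rose and 4 fell in TGF_KD_CM against TGF_VEC_CM (73.3%, against 43.3% of all genes), among them Nras and Braf with log2 fold changes of 0.28 and -0.24. Of 13 genes of the JNK and p38 cascades, 6 rose and 4 fell in OE_CM against VEC_CM (76.9%, against 54.0% of all genes), and 1 rose and 4 fell in TGF_KD_CM against TGF_VEC_CM (38.5%, below the 43.3% of all genes). Of 6 genes of serum response factor and its cofactors, 3 rose and 1 fell in OE_CM against VEC_CM (66.7%), and 1 rose and 4 fell in TGF_KD_CM against TGF_VEC_CM (83.3%). Srf itself, which encodes the serum response factor, had log2 fold changes of 0.38 ± 0.041 and -0.29 ± 0.041 in these comparisons.

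The remaining lists were small. Of 9 tested bZIP partners of the AP-1 proteins, 3 rose and 2 fell in OE_CM against VEC_CM (55.6%, near the 54.0% of all genes). They were led by Mafg (0.38 ± 0.034), Batf2 (-0.99 ± 0.21) and Mafk (0.26 ± 0.061). As many rose and fell in TGF_KD_CM against TGF_VEC_CM (55.6%, against 43.3% of all genes). There Batf2, which pairs with Jun proteins, was higher by 1.62 ± 0.18 (edgeR adjusted p = 1.56e-11). The EGR family and the EGR corepressors NAB1 and NAB2 had 4 tested genes. In OE_CM against VEC_CM 50% of them passed, and in TGF_KD_CM against TGF_VEC_CM 75%. Nab1 rose and Nab2 fell in both comparisons. Their log2 fold changes were 0.22 and -0.21 in OE_CM against VEC_CM, and 0.16 and -0.15 in TGF_KD_CM against TGF_VEC_CM. Egr3 fell in TGF_KD_CM (-0.54 ± 0.22, edgeR adjusted p = 0.0368). Of 3 tested genes that MYC is known to repress, Gadd45a rose and Ndrg1 fell in OE_CM against VEC_CM (1.36 ± 0.043 and -0.62 ± 0.060), and both rose in TGF_KD_CM against TGF_VEC_CM (0.63 ± 0.041 and 0.33 ± 0.060) while Cdkn1a fell (-0.17 ± 0.038). Of the genes for turnover of the JUN and MYC proteins, Fbxw7, which marks both for degradation, rose in OE_CM against VEC_CM (0.45 ± 0.057).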

How the data were processed

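Deposited whole-number counts of 24619 genes in 12 libraries, without normalization, went into edgeR 4.0.16 (R 4.3.3). In the deposited FPKM table the authors had divided each count by the library total and by 1 length per gene, checked over 24619 genes to within 0.000395%. The build was GRCm38 or mm10, per the submitters' processing notes. For the aligner, the counter and its strand setting nothing is given in the sources used here. Libraries were prepared with a SMARTER messenger RNA kit, per the labels' protocols.

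The filter of filterByExpr kept 14400 genes (10219 removed), and all 12 libraries entered 1 robust quasi-likelihood fit with TMM factors and 4 group means, so that the groups share 1 estimate of the spread. All tests were two-sided; p-values were adjusted by Benjamini and Hochberg's method over 14400 genes, with a threshold of 0.05. CPM values carry the TMM factors. Within groups, log2 CPM of replicates correlated with r of 0.992 to 0.994, with a chi-square per gene of 2.94 to 4.32, so every pair differed by more than sampling noise. A count of 3 stood for at most 0.0939 CPM, and such floors cover counting error only.

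The 10 members were taken by symbol, and 13 gene lists, 6 marker lists and all tests were chosen with earlier results of these data known. Of each list the 3 genes with the lowest p that passed are named, except for some that are not reported here, as well as all members; likeness uses the Pearson r of log2 CPM over 12 libraries. The fit was also run on data simulated with the same spread for every gene, and the outcome is not used for any call here. Lists, correlations and shares carry no test. Alternatives were upper-quartile and DESeq2 1.42.0 size factors, DESeq2's Wald test, other filters, limma 3.58.1 on log2(FPKM + 1) and on log2(FPKM + 0.1), a replicate block, fits of the compared groups only, and leaving out each library. Promoters and gene positions come from RefSeq (GRCm38.p6), and overlapping genes from GENCODE.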

Additional observations from a re-analysis of the deposited data

Results flagged for a closer look

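The effect of OE_CM against VEC_CM and that of TGF_KD_CM against TGF_VEC_CM differed, by a test of the difference itself (edgeR quasi-likelihood, adjusted over all genes), for 6 genes. On the log2 scale the difference was 1.63 for Fos, 0.63 for Fosl1, -0.65 for Fosl2, 1.64 for Junb, -0.50 for Jund and 1.48 for Myc. Of these, Fos rests on 5 to 50 counts per library. Its call was lost without any 1 of 7 libraries and with no filter on low counts. Only the second effect was measured with TGF-beta1, and in a separate part of the study. The change of the microRNA, TGF-beta1 and the part cannot be told apart in these differences.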

How the results depend on the processing

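The number of members that passed stayed within 1.5 times in every alternative run: 6 to 7 (6 as reported) in OE_CM against VEC_CM, 7 to 8 (8) in TGF_KD_CM against TGF_VEC_CM, 5 to 6 (5) in TGF_VEC_CM against VEC_CM, 5 to 8 (6) for the difference of effects, 8 to 9 (8) in OE_CM against TGF_VEC_CM and 7 to 10 (9) in TGF_KD_CM against VEC_CM. The number of all genes passing did so too. Of 42 gene results that passed, 37 passed in every alternative that gave a value; the exceptions were Jun in TGF_KD_CM against TGF_VEC_CM, Fos in the difference of effects, and Atf3, Egr1 and Jun in TGF_KD_CM against VEC_CM. Directions turned only for values that did not pass. Leaving out 1 library moved Fosb in OE_CM against VEC_CM between -0.80 and 0.17, Jund and Atf3 in TGF_KD_CM against TGF_VEC_CM between -0.035 and 0.040 and between -0.86 and 0.031, and Fosl1 and Jun in TGF_VEC_CM against VEC_CM between -0.043 and 0.042 and between -0.089 and 0.046. It moved Atf3 in the difference of effects between -1.40 and 0.13 and in OE_CM against TGF_VEC_CM between -0.98 and 0.72. Upper-quartile factors gave -0.012 for Jund in TGF_KD_CM against TGF_VEC_CM and 0.012 for Fosl1 in TGF_VEC_CM against VEC_CM, and a filter of 1 CPM in 3 libraries gave 0.0044 for the last. On log2(FPKM + 1), with and without a filter, limma gave -0.019 for Jund in TGF_KD_CM against TGF_VEC_CM, 0.032 for Fosl1 and 0.0019 for Jun in TGF_VEC_CM against VEC_CM, and -0.0028 for Atf3 in OE_CM against TGF_VEC_CM; on log2(FPKM + 0.1) these were -0.020, 0.032, 0.0023 and -0.087. The cause was not tested. The filter of 1 CPM left no value for Atf3, and a fit of the compared groups only has none for the difference of effects, which needs all 4 groups. With the replicate block 6, 8, 5 and 6 members passed, as without it, and it changed no member's call. Deviations of same-numbered libraries correlated between -0.0372 and 0.0436, and the numbers were not treated as pairs in the main fit. Libraries correlated best with their own number in 6 of 6 cases for OE_CM with VEC_CM and 4 of 6 for TGF_KD_CM with TGF_VEC_CM. The same held in 5 of 6 for TGF_VEC_CM with VEC_CM, 6 of 6 for TGF_KD_CM with VEC_CM and 1 of 6 for OE_CM with TGF_VEC_CM. This is a hint from the data and not the design, and pairing is not excluded. At 4 to 86 counts per library, Fos, Fosb, Egr1 and Atf3 limit what can be seen.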
